A study of Mus musculus with 5 samples.

Results

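Among 16356 long non-coding RNA (lncRNA) loci assembled from mouse testis RNA, 262 were examined here. They are the loci whose transcripts the authors all typed as intergenic and all listed as not known, and of which at least 1 transcript nevertheless carries an Ensembl gene ID. The choice used the authors' annotation and no measured value. Testes came from male C57BL/6J mice, bought at 10 weeks of age, dosed through a stomach tube with triptolide, a diterpenoid of the vine Tripterygium wilfordii, at 50 µg/kg daily, or with saline as the control. Tissue was taken at 35 days from groups of 6 mice, per the labels. The libraries are 2 control and 3 triptolide, and whether a library is 1 animal or several is not stated, which leaves p-values to describe the spread among libraries only. In whole testis, fewer cells of a type and less RNA per cell cannot be told apart.

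An lncRNA is a transcript without a long open reading frame, and testis, above all its meiotic and post-meiotic germ cells, makes an unusually wide range of them. Genes whose symbols end in Rik come from cDNA clone collections, and those that start with Gm are predicted gene models, so for most of these loci the name tells nothing of a function. Transcription from the strand opposite a gene gives natural antisense RNA. Where both transcripts start near each other and point apart or across each other, a stretch of DNA serves as the start region of both.

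Most of these loci, though typed intergenic, overlap an annotated gene on the other strand. How the authors defined intergenic was not examined, so the overlap does not show that their label is wrong. The 262 loci carry 251 Ensembl gene IDs, 245 of them with a symbol, and 183 locus and symbol pairs could be found in the RefSeq gene table (GRCm38.p6). In 163 of these (89.1%) the locus overlapped the RefSeq gene, and in all 135 overlaps for which RefSeq gives a strand the locus lay on the opposite strand. Known intergenic loci of the same table, examined in the same way, overlapped their RefSeq gene in 1217 of 1243 pairs (97.9%), with 1003 on the same strand and 1 on the opposite strand. Of those known loci, 354 began within 1 base of a RefSeq start, so the coordinates are those of mouse build GRCm38 although the submitters' processing notes name hg19. The sense gene is mostly itself non-coding: RefSeq types it as lncRNA for 164 members, as protein-coding for 15, as a pseudogene or transcribed pseudogene for 3 and as miscellaneous RNA for 1, and holds no entry by that symbol for 79.

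The deposited table shows the same arrangement from within. For 217 of the 262 loci it also lists a locus with the same Ensembl ID on the other strand, called the partner here (the most abundant, where there were several), and 199 of these partners are listed as known. The 2 overlapped in 208 pairs and lay apart in 9. In 75 pairs the loci were head to head, each starting inside the other's span, with a median overlap of 1440 bases. Another 63 were tail to tail, 47 loci lay wholly within the partner, and 23 covered it. Only 3 overlapped another locus of the gene on their own strand. By RefSeq or by an overlapping partner, 226 of the 262 were thus opposite to the gene they are named for, and for 36 neither source shows it. All 262 are called antisense loci below for short, although for those 36 the name is not shown to hold.

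For 6 of the antisense loci that differed after triptolide, all of them in head-to-head pairs, the RefSeq promoter of the sense gene lies wholly inside the span of the antisense locus. Such promoters of 4 genes are shown, for a pair of loci that rose and a pair that fell. Each runs 5′ to 3′ along the sense gene, from RefSeq (GRCm38.p6), 250 bases before and 50 bases after its start, with the transcribed 50 bases in capitals.
D130017N08Rik promoter, chr5:143758104-143758403, + strand: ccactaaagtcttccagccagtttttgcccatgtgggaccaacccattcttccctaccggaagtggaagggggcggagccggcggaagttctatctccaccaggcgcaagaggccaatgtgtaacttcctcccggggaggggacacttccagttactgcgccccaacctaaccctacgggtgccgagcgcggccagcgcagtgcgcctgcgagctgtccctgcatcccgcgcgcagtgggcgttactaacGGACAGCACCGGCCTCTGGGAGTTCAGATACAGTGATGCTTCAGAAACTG
1700016B01Rik promoter, chr5:112155977-112156276, + strand: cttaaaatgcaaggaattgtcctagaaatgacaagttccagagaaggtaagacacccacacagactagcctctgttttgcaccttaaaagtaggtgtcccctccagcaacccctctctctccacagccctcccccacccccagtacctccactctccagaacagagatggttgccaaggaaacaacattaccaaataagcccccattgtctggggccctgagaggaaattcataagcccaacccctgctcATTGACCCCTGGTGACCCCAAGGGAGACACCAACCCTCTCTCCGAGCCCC
1700100L14Rik promoter, chr13:70572991-70573290, + strand: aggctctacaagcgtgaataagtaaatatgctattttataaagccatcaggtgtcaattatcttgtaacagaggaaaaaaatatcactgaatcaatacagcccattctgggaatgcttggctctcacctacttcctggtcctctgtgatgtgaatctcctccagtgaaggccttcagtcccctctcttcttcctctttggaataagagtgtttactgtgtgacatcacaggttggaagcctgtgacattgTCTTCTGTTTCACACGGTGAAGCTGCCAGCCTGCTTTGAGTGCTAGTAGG
AY702103 promoter, chr17:50238958-50239257, + strand: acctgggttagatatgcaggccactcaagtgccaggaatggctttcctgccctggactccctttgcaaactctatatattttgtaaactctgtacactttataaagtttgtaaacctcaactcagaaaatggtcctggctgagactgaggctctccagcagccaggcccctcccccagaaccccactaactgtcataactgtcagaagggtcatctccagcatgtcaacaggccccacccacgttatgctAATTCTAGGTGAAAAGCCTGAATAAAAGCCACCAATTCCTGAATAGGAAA
The antisense locus reads these bases from right to left and begins further downstream of the sense start: 1415 bases at D130017N08Rik, 548 at 1700016B01Rik, 2020 at 1700100L14Rik and 154 at AY702103. The window lies within 3 of the 5 antisense transcripts at D130017N08Rik, all 12 at 1700100L14Rik and 4 of 5 at AY702103. At 1700016B01Rik it lies within 1 of 5, TCONS_00253281, whose groups overlap, and not within TCONS_00253276, the transcript with triptolide above control. The GC content of the 4 windows was 61.0%, 53%, 44.0% and 47.3%, against a median of 52.7% over 32817 RefSeq promoters. CCAAT, on either strand, occurs once in the windows of D130017N08Rik and AY702103 and in 37.4% of all promoters. TATAAA, on either strand, has 2 matches each in those of AY702103 and 1700100L14Rik and occurs in 13.6% of all. In each window the 2 matches are 1 site that reads on both strands. Both sites lie in the upstream part of the window, away from the sense start. TGACG, the core of the element bound by CREB and CREM, occurs in none of the 4 and in 20.8% of all. Searches allowed overlapping matches.

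The antisense loci are spliced models. Their median span was 8780.5 bases (range 494 to 345321), every locus had a transcript of at least 2 exons, and the most complex had 10 exons. They comprise 583 transcripts, of which 482 carry the gene ID and 101 do not, and 145 loci have a single transcript. They lie on 21 chromosomes, with 33 on chromosome 1, 30 on chromosome 2 and 28 on chromosome 5. By name, 123 are Gm models and 108 Rik clones, 23 have another symbol, 6 have none, 1 is the pseudogene Gpr137b-ps and 1 is Mir124-2hg, the host transcript of a miR-124 precursor. None lies at a gene of 14 lists of 147 testis cell-type, p53-target, transcription and lncRNA genes, so no cell type can be read from them. The mRNA transcripts come without gene names, so the labelled tissue was not checked on marker genes.

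Levels are given as CPM, counts scaled to 1000000 lncRNA counts per library, whose totals ranged from 947298 to 1071012. The median antisense locus stood at 9.66 CPM over the 5 libraries, against 4.33 CPM for intergenic loci not listed as known and without a gene ID, 0.754 CPM for known intergenic loci and 4.51 CPM for all loci. Of the 2432 known intergenic loci, however, 883 had no counts in any library, against 1 of the 262. Among loci that passed the filter on low counts the order differed. The median was then 38.3 CPM for antisense loci, 29.2 without a gene ID, 61.3 for known intergenic loci and 37.3 for all. Of the 262, 39 reached a mean of 100 CPM and 43 stayed under 1 CPM. Together they held 1.32% and 1.30% of lncRNA counts in control 1 and 2, and 1.26%, 1.30% and 1.34% in triptolide libraries A, B and 3. Here A and B stand for columns that share the header of triptolide replicate 2, so the header alone does not number them, and they were not numbered by their values. The groups overlap in this share, and the 5 values lie within 0.08 percentage points of each other.

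The 10 most abundant antisense loci held 34.0% of the summed level. Gm32051 (chr5:105413308-105415712, minus strand) was highest, at 785.6 and 688.1 CPM in control against 586.9, 635.8 and 611.9 in triptolide. The triptolide libraries all lie below control there, but the log2 fold change of -0.27 did not pass the test (adjusted p = 0.39, edgeR). Its partner, tail to tail with it, averaged 1.41 CPM. Gm8739, at 540.1, 524.4, 496.1, 406.5 and 523.8 CPM in control 1 and 2 and triptolide A, B and 3, has the most transcripts, 15. A230108P19Rik followed at 493.3, 585.4, 438.1, 369.4 and 505.1 CPM with its partner at 0 in every library. Its groups overlap, as do those of Gpr137b-ps (adjusted p = 0.93, edgeR) and Gm13605 (adjusted p = 0.96). 4833413E03Rik stood at 405.2 and 416.4 CPM in control against 309.3, 348.6 and 313.7 in triptolide, without overlap, and did not pass the test (adjusted p = 0.28, edgeR). Gm26917 rested on 1 library: control 2 stood at 709.6 CPM, while control 1 was at 388.6 and triptolide at 400.1, 385.5 and 308.9. Its adjusted p was 0.084 with all libraries, without control 1 it was 0.0015 (log2 fold change -0.98, edgeR), and without control 2 it was 0.94 (log2 fold change -0.05).

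Per length the order was another. By deposited FPKM in the 2 controls, summed over the transcripts of a locus, 1700100L14Rik led at 1269 and 836, above Gm8739 at 597 and 527. 1700101O22Rik, which has 1 transcript and stands at rank 50 by CPM, had 254 and 646, so its 2 controls differ widely.

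Which antisense loci differ after triptolide was tested with edgeR's quasi-likelihood F test over all lncRNA loci. The 141 antisense loci (53.8%) that passed the filter on low counts were tested. The other 121 had a median of 8 counts over the 5 libraries and at most 43, and 1 had none, so only a large change could have been seen in them. Without the filter, 120 of these could be tested and 1 passed, 1700081B01Rik, chosen here after its values were seen: it had 18 and 7 counts in control against 1, 3 and 1 in triptolide (log2 fold change -2.82 ± 0.90 (SE), adjusted p = 0.047, edgeR). At a Benjamini-Hochberg adjusted p under 0.05, 11 loci were higher in triptolide and 5 lower, 11.3% of those tested. Over all 6888 lncRNA loci tested, the background was 7.27%, with 5.01% higher and 2.26% lower. CPM of the groups did not overlap at 34 antisense loci with triptolide above control (24.1%, background 19.7%) and at 26 with triptolide below (18.4%, background 18.3%). The log2 fold change was above 0 at 71 and below 0 at 70, with a median of 0.03 against 0.00 over all loci. At an unadjusted p under 0.05 there were 30 (21.3%), against 21.7% of all loci.

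**Figure D1:**
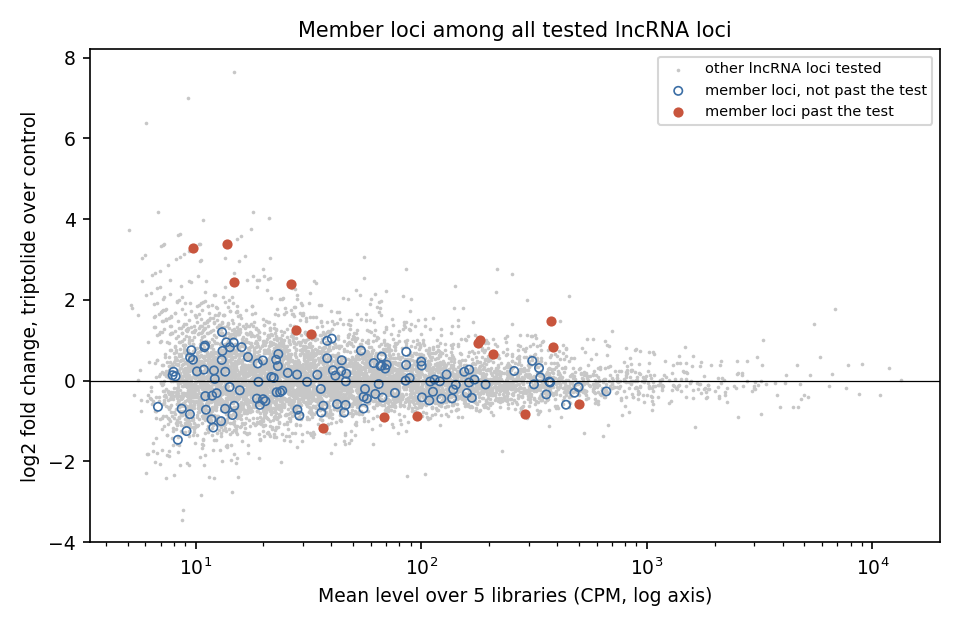
Mean level over the 5 libraries (CPM, log axis) and log2 fold change, triptolide over control, of all 6888 tested lncRNA loci in grey, with the 125 tested antisense loci that did not pass the test as open circles and the 16 that passed as filled circles. The antisense loci spread over both sides of 0 at all levels, and those that passed include loci near 10 CPM with large changes and loci above 100 CPM with small ones.

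Head-to-head loci made up most of what differed. Of 49 head-to-head loci tested, 13 passed (26.5%), 9 higher and 4 lower, against 7.27% of all lncRNA loci tested. Of the other 92 tested, 3 passed (3.26%): Gm5118 and Gm19265, tail to tail with their partners, and the Arhgef2 locus, which has no partner in the table. No locus within its partner passed of 18 tested, and none that covered its partner of 13. Too few were tested, against a background of 7.27%, to read anything from these zeros. The classes go by the most abundant partner, and for 6 loci a choice by overlap gives another partner. XLOC_147302 at Gm43391, counted as head to head, covers the less abundant sense locus XLOC_140885, which is not its partner here. Head-to-head loci were also somewhat more abundant, with a median of 14.8 CPM against 11.8 for tail-to-tail, 10.9 for covering and 3.19 for enclosed loci. Both loci at Gm43391 share 1 partner and are not independent. The arrangement was noticed after the calls were known, and its difference in calls was not tested. Without triptolide A, B or 3, 8, 9 and 8 head-to-head loci passed (16.3%, 19.6% and 16.3% of those tested) and 1, 5 and 1 others. Over all tested lncRNA loci the share was then 4.18%, 8.91% and 4.06%.

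**Figure D2:**
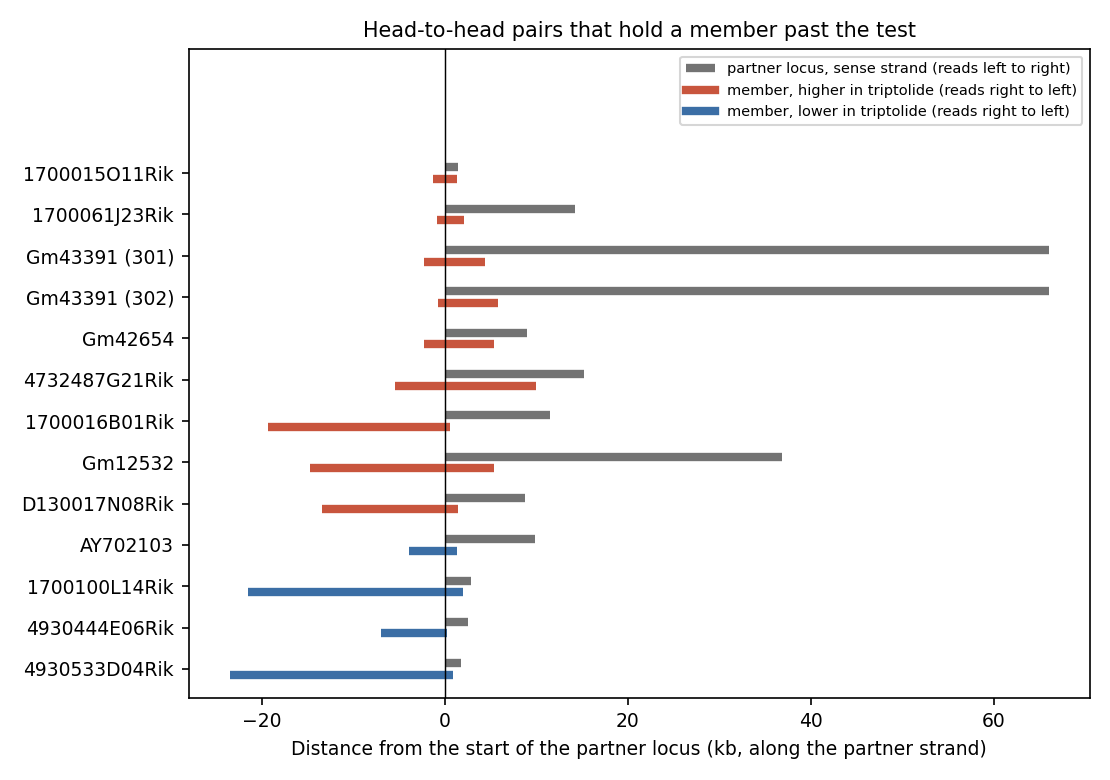
Positions of the 13 head-to-head pairs whose antisense locus passed the test, as distance in kb from the start of the partner along its strand, with the partner in grey and the antisense locus below it in red (higher in triptolide) or blue (lower). Every antisense bar crosses 0, so it runs over the start of its partner. The overlap is 280 bases at 4930444E06Rik and 10010 bases at 4732487G21Rik.

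The largest rises were at loci nearly silent in control. At 1700015O11Rik (XLOC_156719, chr6:113631839-113634444, plus strand, 1 transcript of 2 exons) there were 3 and 1 counts in control against 20, 23 and 23 in triptolide. The ratio of summed counts, scaled to library totals, was 11.1 (95% interval 4.12 to 41.8, counting error only), and the log2 fold change was 3.38 ± 0.69 (SE; adjusted p = 0.0022, edgeR). The 3 triptolide libraries lie close together, all well above both controls, and the call held in every setting tried. At 1700061J23Rik (XLOC_030132, chr11:23151265-23154304, minus strand) counts were 0 and 3 in control against 11, 22 and 14 in triptolide. The ratio was 10.5 (3.38 to 52.8), with an adjusted p of 0.018 (edgeR). This call ended without control 1 (adjusted p = 0.16) and without triptolide B (0.052).

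Gm43391, a gene model on chromosome 5, carries 2 antisense loci that overlap each other. XLOC_147302 (chr5:15463402-15470033, minus strand) had 6 and 9 counts in control against 37, 39 and 43 in triptolide, and its log2 fold change was 2.40 ± 0.43 (SE; adjusted p = 0.00059, edgeR). XLOC_147301 (chr5:15461970-15468587) had 4 and 4 against 22, 23 and 22 counts, with 2.46 ± 0.59 (adjusted p = 0.0082). The libraries of the groups stand far apart at both, and both calls held in every setting. A sense-strand locus of the gene, XLOC_140885, has ends within 42 and 23 bases of those of XLOC_147302 and counts of 6 and 31 in control against 38, 57 and 44 in triptolide, and its log2 fold change was 1.34 (adjusted p = 0.042, edgeR). No label or header states whether counting was stranded, and at this gene, as at the other pairs, reads of the 2 strands cannot be told apart for certain.

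Among abundant loci, the antisense locus at Gm42654 (XLOC_145308, chr5:120341802-120349436, plus strand) had the smallest p. It stood at 195.9 and 168.1 CPM in control against 424.4, 565.0 and 534.2 in triptolide, with a log2 fold change of 1.48 ± 0.20 (SE; adjusted p = 1.3e-05, edgeR). Both of its 2 transcripts were higher in every triptolide library, one from 87.0 ± 16.8 to 212 ± 50.8 CPM and the other from 95 ± 36.5 to 296 ± 31.8 CPM (SD, n = 2 and 3). D130017N08Rik (XLOC_152335, chr5:143744958-143759769, minus strand) rose from 264.3 and 260.5 CPM to 427.0, 442.3 and 524.5, with a log2 fold change of 0.83 ± 0.19 (adjusted p = 0.0064). Of its 5 transcripts 3 were higher in all triptolide libraries, led by TCONS_00256966 from 83.4 ± 44.5 to 241 ± 68.0 CPM. One, TCONS_00256961, was lower in all of them, from 38.7 ± 8.28 to 16 ± 10.2 CPM, and transcripts were not tested singly. No label or header says how reads were divided between models of a locus.

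A further pair of abundant loci rose about as much. Gm12532 (XLOC_124251, chr3:37168214-37188279, minus strand) stood at 124.4 and 105.5 CPM in control against 209.0, 191.8 and 284.6 in triptolide (log2 fold change 1.0 ± 0.22 (SE), adjusted p = 0.0047, edgeR). Its transcripts, not tested singly, differed in direction. Without overlap, TCONS_00205475 went from 43.5 ± 8.49 to 88.2 ± 16 CPM and TCONS_00205470 from 13.1 ± 10.4 to 54.7 ± 24.2 CPM. TCONS_00205473 went from 25.0 ± 1.10 to 8.28 ± 1.96 CPM, also without overlap. TCONS_00205470 carries no gene ID and does not reach the partner. Gm5118 (XLOC_184529, chr8:87093365-87101590, minus strand) stood at 106.7 and 122.3 against 234.4, 213.5 and 213.7 CPM, with a log2 fold change of 0.94 ± 0.21 (adjusted p = 0.0046). Its call was lost without control 1 (adjusted p = 0.080), and its partner held 1.06 CPM in triptolide A and 0 elsewhere. Most of its counts fell on TCONS_00311810, from 91.2 ± 6.31 to 172 ± 17.2 CPM.

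Another 3 rises were nearer the threshold. 4732487G21Rik (XLOC_038375, chr12:86295997-86311394, plus strand) had 14.5 and 15.9 CPM in control against 29.6, 35.9 and 43.7 in triptolide, and 1700016B01Rik (XLOC_150764, chr5:112136952-112156775, minus strand) had 19.7 and 17.7 against 37.8, 44.4 and 42.1 CPM. Their log2 fold changes were 1.25 ± 0.38 and 1.14 ± 0.35 (SE; adjusted p = 0.037 and 0.040, edgeR). Neither pair of groups overlaps, but neither call held when any 1 library was left out, with adjusted p from 0.054 to 0.17 and from 0.069 to 0.15. Both were also lost with DESeq2 (0.12 each), and 1700016B01Rik without the filter (0.060). Among the transcripts of 1700016B01Rik, only TCONS_00253281 carries the gene ID and reaches the partner. Its counts were 0 and 6.75 in control against 4.48, 23.91 and 0 in triptolide, with overlap. With gene-ID transcripts only, the 1700016B01Rik locus was not among those tested. The partner of 4732487G21Rik was at 0 in every library although the 2 loci overlap by 10010 bases.

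Of 15 antisense loci at genes RefSeq types as protein-coding, only that at Arhgef2 passed, but no more than 9 were tested. Over all tested lncRNA loci the share that passed was 7.27%. Arhgef2 encodes GEF-H1, a guanine nucleotide exchange factor held on microtubules. The locus (XLOC_125931, chr3:88594053-88607605, minus strand) stood at 167.9 and 141.9 CPM in control against 255.4, 207.9 and 265.2 in triptolide, and its log2 fold change was 0.65 ± 0.21 (SE; adjusted p = 0.050, edgeR, just under the threshold). The call was lost without triptolide A (adjusted p = 0.20), control 1 (0.11), control 2 (0.23) or triptolide 3 (0.14), and also with DESeq2 (0.071), without TMM (0.052), without the filter (0.054) and with gene-ID transcripts only (0.060). Of the 15, 9 were tested. The Mgat4d locus, beside a testis gene for an inhibitor of an N-glycan branching enzyme, was the most abundant, with 335 and 333 counts in control against 312, 278 and 340.8 in triptolide (adjusted p = 0.83, edgeR). Loci at Ehbp1 (endocytic traffic), Wipi1 (autophagy), Ppp1r3g (glycogen-bound phosphatase) and Aen (a p53-induced nuclease) had overlapping groups and adjusted p from 0.66 to 0.88. Those at Kif5b, the kinesin-1 heavy chain, Tpp2, a peptidase, and Psmd9, a proteasome assembly factor, had at most 7 counts in any library and were not tested. In RefSeq, 9 of the 15 overlapped the named gene and all 6 with a known strand lay opposite to it, and the remaining 6 lay outside the RefSeq span.

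**Figure D3:**
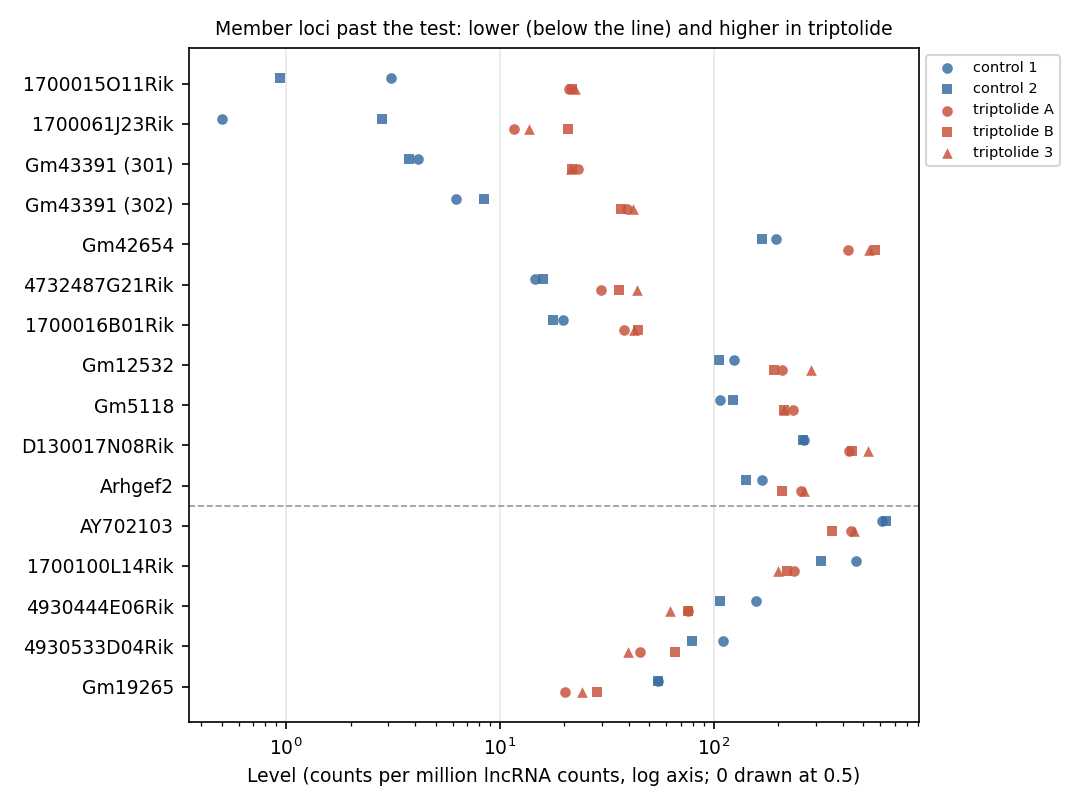
CPM (log axis) of the 16 antisense loci that passed the test, in each of 2 control libraries (blue) and 3 triptolide libraries (red), ordered by log2 fold change, with the 11 rises above the dashed line and the 5 falls below it. A count of 0 is drawn at 0.5 CPM, and the last digits of the locus name tell the loci of Gm43391 apart. In all 16 the red and blue points do not overlap.

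Of the 5 falls, 1700100L14Rik was among the most complex loci, with 12 transcripts (XLOC_053260, chr13:70551727-70575261, minus strand). It stood at 461.2 and 318.4 CPM in control against 236.5, 220.1 and 200.1 in triptolide, and the log2 fold change was -0.83 ± 0.20 (SE; adjusted p = 0.0074, edgeR). Its main transcript, TCONS_00088551, went from 217 ± 77.2 to 115 ± 5.54 CPM and TCONS_00088558 from 43.0 ± 11.3 to 6.29 ± 10.9 CPM. The controls differ from each other by more than control 2 differs from triptolide A, and without control 1 the call was lost (adjusted p = 0.23). 4930444E06Rik (XLOC_115281, chr2:144236299-144243520, minus strand) behaved alike in this, at 157.5 and 106.4 against 76.0, 75.6 and 62.2 CPM (log2 fold change -0.88 ± 0.24, adjusted p = 0.019, edgeR). Leaving out control 1 gave an adjusted p of 0.34, leaving out triptolide A 0.052 and leaving out triptolide 3 0.074.

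AY702103 (XLOC_089314, chr17:50234085-50239362, minus strand) was the most abundant locus that fell, at 609.4 and 636.8 CPM in control against 439.1, 355.2 and 454.6 in triptolide. The log2 fold change was -0.58 ± 0.18 (SE; adjusted p = 0.049, edgeR), and its main transcript, TCONS_00145773, went from 552 ± 19.5 to 358 ± 54.2 CPM. Groups stand apart, yet each library left out in turn ended the call (adjusted p from 0.067 to 0.20), as did a mean count of at least 10 (0.056), no filter (0.060) and gene-ID transcripts only (0.051). Gm19265 (XLOC_161101, chr6:85974976-86003592, minus strand) went from 54.9 and 55.1 to 20.1, 28.3 and 24.3 CPM, the largest fall, with a log2 fold change of -1.17 ± 0.31 (adjusted p = 0.018). 4930533D04Rik (XLOC_195384, chr9:102668536-102692915, minus strand) went from 110.9 and 79.3 to 45.4, 66.1 and 39.8 CPM (-0.91 ± 0.27, adjusted p = 0.034). Control 2 and triptolide B are close there, and the call was lost without control 1 (adjusted p = 0.32), triptolide A (0.13) or triptolide 3 (0.12) and with DESeq2 (0.083). For Gm19265 it was lost without control 1 (0.062), control 2 (0.075), triptolide A (0.11) or triptolide 3 (0.054) and with DESeq2 (0.056).

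Whether an antisense locus and its partner move together could be compared in the 69 pairs with both loci tested. The antisense locus passed the test in 12 of them, the partner in 6, and both in 0. This counts the most abundant partner only: at Gm43391 the sense locus XLOC_140885, less abundant than the partner, passed beside both antisense loci (log2 fold change 1.34, adjusted p = 0.042, edgeR). Over all tested lncRNA loci 7.27% passed. With so few calls among 69 pairs, nothing can be read from the 0 for both. The log2 fold changes had the same sign in 35 pairs and opposite signs in 34. Across the pairs Pearson's r was 0.20 and Spearman's rank coefficient 0.25, as a description, since pairs come from the same 5 libraries and some share a partner. The ratio of antisense to sense CPM was higher in all triptolide than in all control libraries in 19 pairs (27.5%), lower in 10 (14.5%) and overlapped in 40. For comparison, CPM of single loci did not overlap in 19.7% (triptolide above) and 18.3% (below) of all tested lncRNA loci. No such share is given here for ratios of other pairs of loci, so no shift is read from these counts. With 10 assignments of 5 libraries, a two-sided exact permutation test of a ratio cannot go below 0.1.

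**Figure D4:**
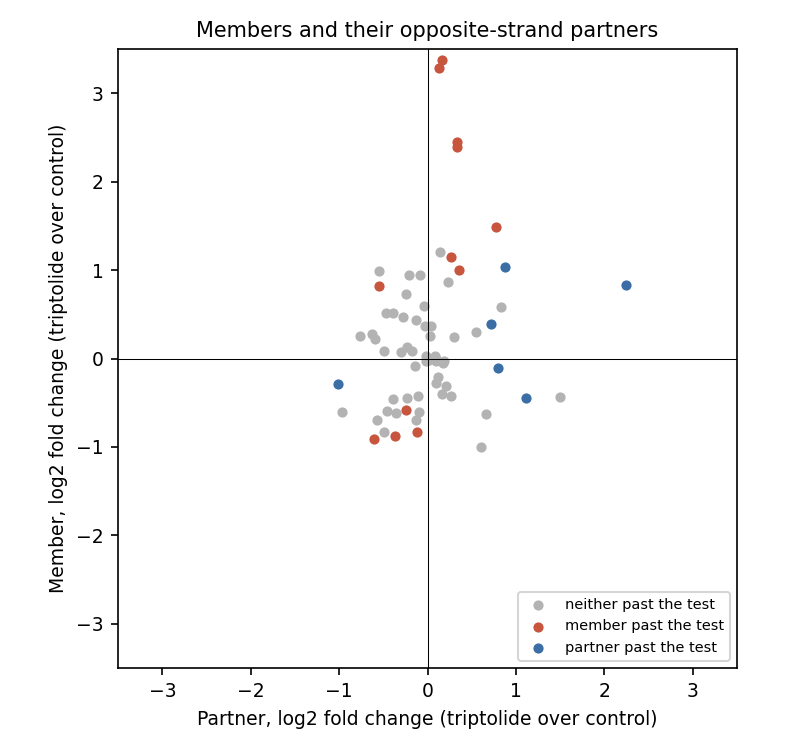
Log2 fold change, triptolide over control, of the antisense locus (vertical axis) against its opposite-strand partner (horizontal axis) in the 69 pairs with both loci tested. Red points are pairs whose antisense locus passed the test and blue points pairs whose partner did. In the red points the partner lies between -0.61 and 0.77, and no such pair had both loci past the test. The less abundant sense locus XLOC_140885 at Gm43391, which passed, is not plotted.

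At D130017N08Rik the 2 strands differed in opposite directions, and only the antisense locus passed the test. The sense locus was at 700.6 and 759.1 CPM in control against 513.1, 436.0 and 540.6 in triptolide (log2 fold change -0.55 ± 0.18 (SE), adjusted p = 0.056, edgeR, which misses the threshold). With the groups apart at both loci in opposite directions, the antisense to sense ratio had to separate them too. It was 0.377 and 0.343 in control against 0.832, 1.02 and 0.970 in triptolide (exact permutation p = 0.1, the lowest possible with 2 against 3 libraries). In control the sense locus was thus far above the antisense locus, and in triptolide they stood level. A second antisense locus of the gene, XLOC_152340, enclosed in the sense locus, had 25 and 24 counts in control against 44, 46 and 55 in triptolide (adjusted p = 0.062, edgeR).

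At the other head-to-head pairs named here the sense locus taken as partner did not pass the test. The less abundant sense locus XLOC_140885 at Gm43391 did. At 1700015O11Rik the sense locus stood at 186.5 and 119.5 CPM in control against 174.2, 184.2 and 154.4 in triptolide (adjusted p = 0.72, edgeR), and the ratio went from 0.0167 and 0.0078 to 0.121, 0.118 and 0.145. The groups overlap in the sense locus and not in the ratio. At 1700016B01Rik the ratio was 0.0840 and 0.0714 in control against 0.133, 0.139 and 0.159 in triptolide, and at Gm12532 it was 2.18 and 2.13 against 4.40, 2.82 and 3.22. At 1700100L14Rik it was 0.401 and 0.279 against 0.235, 0.190 and 0.201, with the sense locus at 1149 and 1142 CPM in control against 1005, 1156 and 994 in triptolide. None of these 3 ratios overlaps between the groups. At Gm42654 the sense locus was also higher in every triptolide library, at 36.3 and 58.8 against 89.7, 91.7 and 64.1 CPM (log2 fold change 0.77, adjusted p = 0.096, edgeR), and the ratio overlapped.

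In 6 pairs the partner passed the test and the antisense locus did not. The sense locus at 2310015A10Rik rose from 102.6 and 87.8 to 221.7, 190.9 and 202.0 CPM (log2 fold change 1.11, adjusted p = 0.0015, edgeR). The antisense locus, tail to tail with it, stood at 74.6 and 62.6 against 45.4, 35.9 and 69.0 CPM with overlapping groups (adjusted p = 0.40, edgeR), and the antisense to sense ratio went from 0.727 and 0.713 to 0.205, 0.188 and 0.341. The sense locus at B230303O12Rik rose from 19.7 and 12.1 to 76.0, 53.9 and 96.2 CPM (2.25, adjusted p = 0.00014), and that at 1700054A03Rik from 280.9 and 330.5 to 528.9, 550.8 and 511.9 CPM (0.79, adjusted p = 0.0072). Their ratios also lay lower in all triptolide libraries, at 0.222, 0.386 and 0.212 against 0.737 and 0.615 for the first, and at 0.272, 0.221 and 0.290 against 0.602 and 0.390 for the second. The partners at 4932435O22Rik and C230088H06Rik rose and the partner at Gm6639 fell, and the partners at C230088H06Rik and Gm6639 do not overlap the antisense locus.

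**Figure D5:**
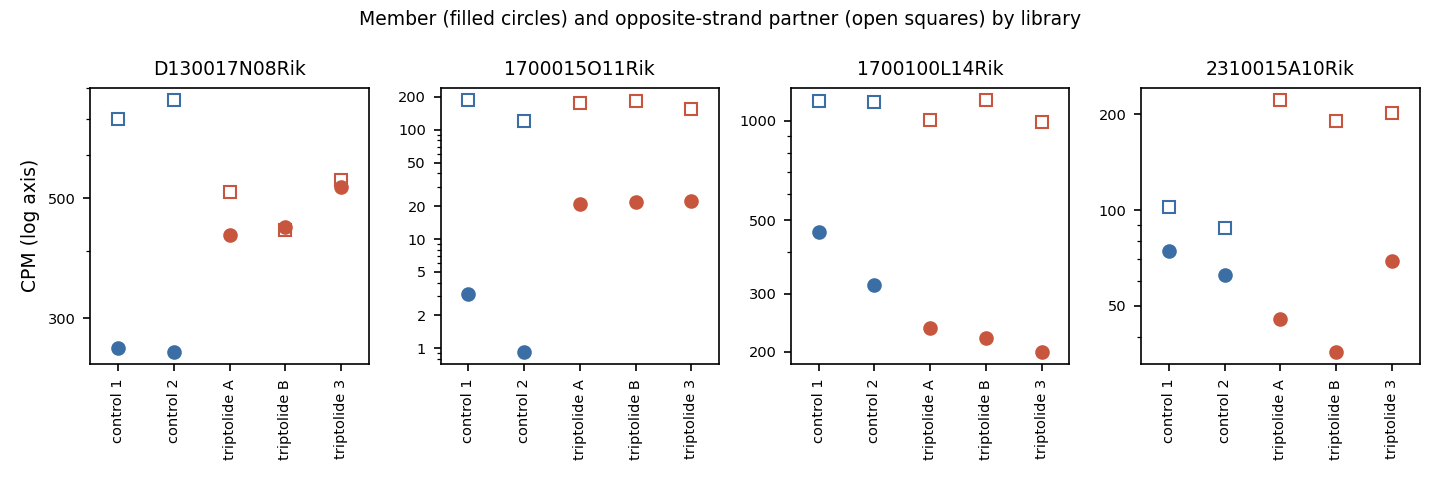
CPM (log axis) by library for 4 pairs, with the antisense locus as filled circles and the sense partner as open squares, control in blue and triptolide in red. At D130017N08Rik both strands meet in triptolide. At 1700015O11Rik the antisense locus is higher in triptolide, at 1700100L14Rik lower, with the sense locus near its control level, and at 2310015A10Rik the sense locus is higher.

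Circular RNAs, formed by back-splicing, were found inside 2 of the 262 antisense loci. Of 23 such circles in the authors' circRNA table, 20 lie in 1700003L19Rik on chromosome 16 and 3 in 1700083H02Rik on chromosome 12, and the table gives none of them a host gene. Only 2 of the 23 were above 0 in all 5 libraries. The circle at chr16:12671249-12685720 scored 140 and 99 in control against 38, 35 and 69 in triptolide, and that at chr16:12671249-12706317 scored 96 and 41 against 28, 35 and 52. The first shows no overlap between groups and the second overlaps. The highest-scoring circle of the locus, chr16:12671249-12684206, scored 0 and 240 in control against 200, 256 and 200 in triptolide, with overlap. Circles were not tested, and the share of all circles without overlap is not given here. The linear 1700003L19Rik locus was at 336.8 and 316.5 CPM in control against 330.4, 324.1 and 378.8 in triptolide (adjusted p = 0.85, edgeR).

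The fragment length implied by the deposited FPKM was shorter than in control 1 by 10.3 bases in control 2 and by 28.0 bases in triptolide 3. Its part in the results was not tested.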

How the data were processed

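RNA of 5 testis libraries (2 control, 3 triptolide) was analysed from the authors' deposited tables. Per the file headers, the lncRNA table holds expected counts and FPKM per assembled transcript, with locus, class and Ensembl ID. From the values, the deposited FPKM equal the count per effective spliced length and per 1000000 counts of that table. The deposited circRNA values are a score, junction reads scaled to the library and rounded by the authors. Its 3 triptolide columns share a header, and their order here is that of the table. The submitters' processing notes list DESeq, bedtools 2.17.0, HTSeq 0.6.1 and HISAT2 2.0.1 without their roles.

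Expected counts were summed per locus, rounded and compared by the quasi-likelihood F test of edgeR 4.0.16 in R 4.3.3 (TMM after filterByExpr, Benjamini-Hochberg over 6888 loci, threshold 0.05). Alternatives were DESeq2 1.42.0, limma 3.58.1 on log2 CPM (prior count 2), no TMM, no filter, a mean count of at least 10, each library left out and, chosen after seeing the data, only transcripts with a gene ID. On simulated counts with 2-fold and 4-fold changes, edgeR called 32 of 85 and 72 of 84 changed loci among 6828. Intervals of count ratios are exact binomial at 95% and cover counting error only. The members and lists were chosen with earlier results of these data known. Named loci are, among those past the threshold without overlap, the 10 with the largest rise and the 10 with the largest fall, up to 8 per direction by p with at least 20 CPM, the 10 most abundant and the 3 with most transcripts. Pairs discussed beside them were chosen after their values were seen. RefSeq symbols were matched exactly. The mRNA table and 2 FPKM columns of triptolide libraries were not used here, since the count columns beside them carry no number of their own.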

Additional observations from a re-analysis of the deposited data

How the results depend on the processing

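Of the 16 antisense loci that passed the test, 6 passed in all 11 other settings: 1700015O11Rik, both loci at Gm43391, Gm42654, Gm12532 and D130017N08Rik. The other 10 were lost when at least 1 library was left out, and none of the 16 changed direction in any setting. Among named loci that did not pass, the log2 fold change of Gpr137b-ps went from -0.05 to between -0.27 and 0.10 and that of Gm13605 from -0.03 to between -0.10 and 0.08 with single libraries left out. The number higher in triptolide was 11, and 7 to 11 with each library left out (7 without control 1). The number lower was 5, 3 with DESeq2, and 1 to 5 with each library left out (1 without triptolide A or triptolide 3, 2 without control 1, 3 without control 2). Over all tested lncRNA loci the share called moved as well. It was 7.27% in the main fit, 5.07% with DESeq2, and 4.18%, 8.91% and 4.06% without triptolide A, B and 3. The cause was not tested. In all settings the head-to-head loci had a higher share of calls than the others, from 13.5% against 2.06% without control 1 to 26.5% against 4.35% with limma. The settings reuse the same libraries, and the arrangement was noticed after the calls, so they are no independent evidence on it. The share of lncRNA counts held by the antisense loci moved by less than its spread under every setting. Leaving out a control leaves 1 control library, which is then assumed to vary like the others. At 947298 to 1071012 lncRNA counts per library, 121 loci did not pass the filter on low counts. No paired analysis was possible because 2 triptolide count columns carry the same header and no number of their own.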
